A study of Arabidopsis thaliana with 12 samples.

Results

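The 52 genes described here gave the brightest single-gene probes of wild-type Arabidopsis thaliana on a gene expression array. The genes were selected on measured WT values. A gene was chosen when its probe was annotated with 1 gene only and when the mean deposited value over the 6 WT columns was 1.0 or more, with values listed at 0 counted as 0. Of 691 genes on single-gene probes, 62 reached that level, and 10 of these, among them subunits of the photosystems and phosphoribulokinase, were left out by name, which leaves 52. The whole table held 3439 probes. The values that chose the genes are WT values, so the WT levels given below are a description and carry no test.

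The samples were 6 readings of the toc90 mutant in ecotype Columbia 0, which per the labels has an impaired import of proteins across the outer chloroplast envelope, and 6 readings of the wild type (WT) of the same ecotype. Total RNA was measured, and each group was numbered 1 to 6. The labels name neither the toc90 allele nor the tissue, the age of the plants or the growth conditions. Nor do they say that the 6 readings of a group come from separate plants, so p-values measure only the spread between these readings, which may be technical. Most proteins of the chloroplast are encoded in the nucleus, made in the cytosol with a transit peptide at their start and threaded through the TOC and TIC complexes of the outer and inner envelope. TOC90 is a GTPase of the receptor family at the outer envelope that recognises such precursors. When import is impaired, plastids are known to signal back to the nucleus and change the transcription of nuclear genes.

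A brighter probe is not a more abundant transcript, since probes differ in length, labelling and binding, so the term "bright" is used here for the level on the array and no gene is ranked against another by abundance. The deposited values ran up to 100 and have no stated unit beyond array intensity. Of the 52 genes, 10 had WT means above 10, 19 had means from 2 to 10 and 23 had means under 2. The toc90 mean was also 1.0 or more for 41 of the 52. The 52 probes together took 13.1% to 14.6% of the summed signal of a toc90 column and 10.7% to 15.3% of that of a WT column. Without APTX, which is described next, the highest share in WT was 12.6%.

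**Figure D1:**
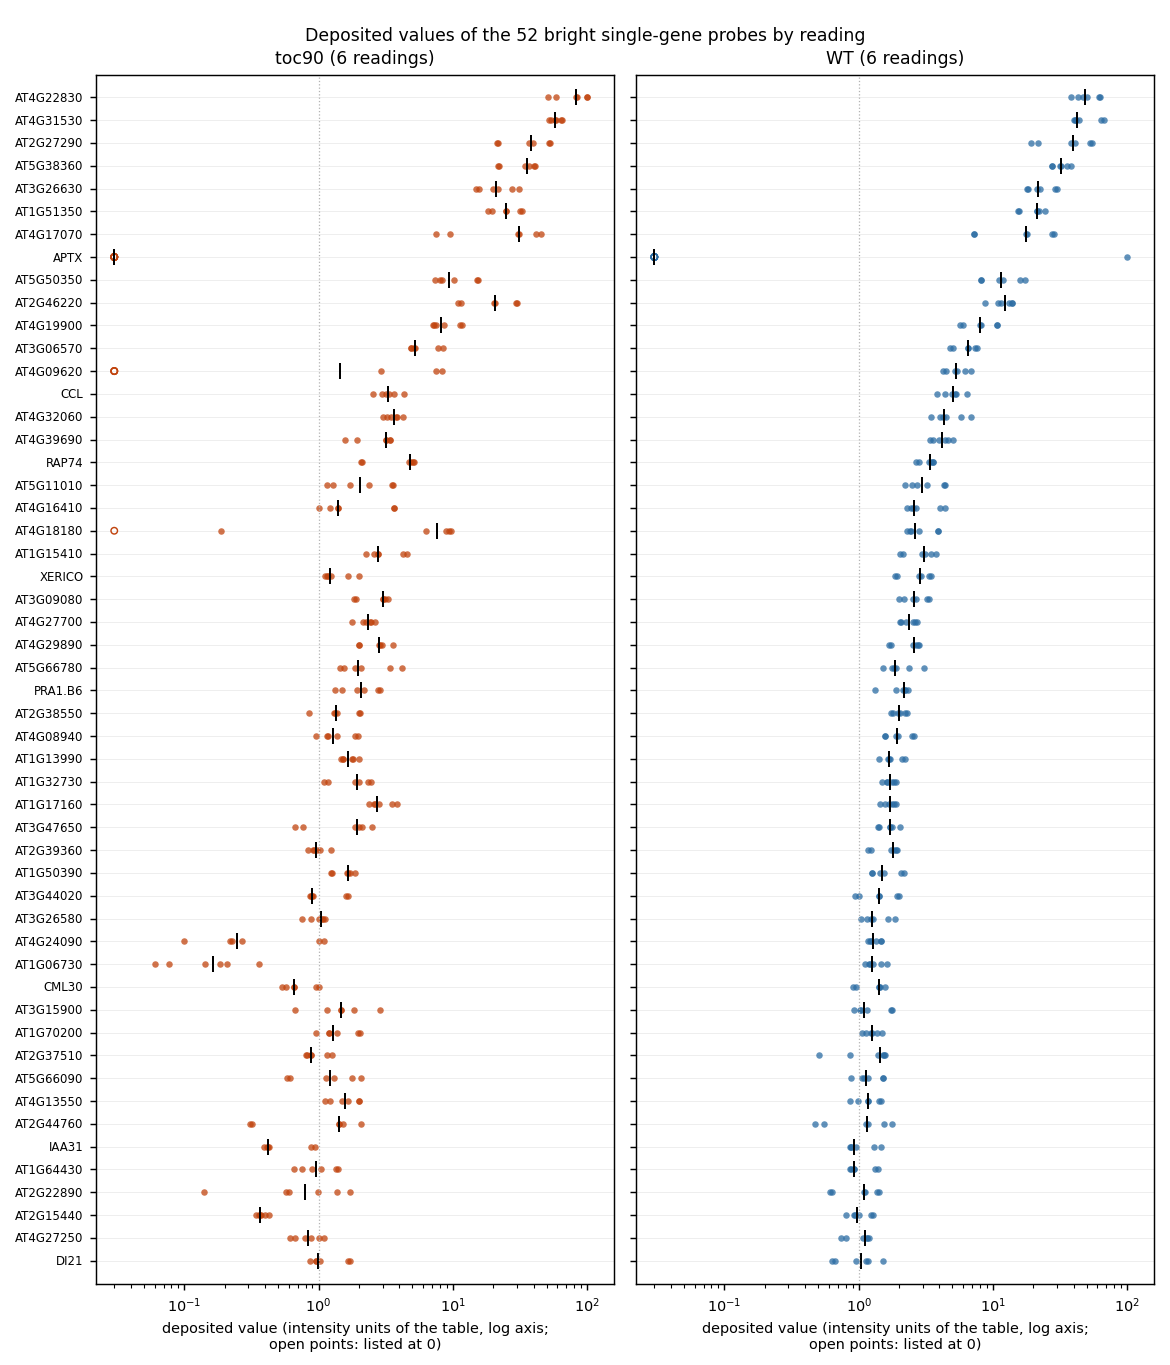
Deposited value of each of the 52 bright probes (log axis, points, 1 per reading) in the 6 toc90 readings on the left and the 6 WT readings on the right, with the median as a vertical tick and values listed at 0 as open points at the left edge. Genes run down the page from the highest to the lowest WT mean, and APTX has 1 WT reading at 99.4 and all others at 0.

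Some features of the readings bear on the results. APTX, which encodes an aprataxin-like protein, a family known for DNA strand-break repair, was listed at 0 in all 6 toc90 readings and in 5 of 6 WT readings. Its remaining WT reading, number 1, stood at 99.4, and this reading alone gave the WT mean of 16.6 that put APTX among the 52. It was not tested. Readings with neighbouring numbers (1 and 2, 3 and 4, 5 and 6) were closer to each other than to the rest of their group, with a median gap of 0.09 in log2 over 303 neighbouring pairs of positive values of the 52 genes against 0.48 over 1210 other pairs. These gaps are in deposited values of both groups, so differences between whole columns enter them. After the quantile normalization described below, deviations from the group mean over 1474 probes correlated between neighbours at 0.43 to 0.52 in WT. In toc90 they correlated at 0.13 (numbers 1 and 2), -0.08 (3 and 4) and 0.35 (5 and 6). Subtracting the mean of the same group pulls correlations of unrelated readings below 0, so -0.08 does not show that numbers 3 and 4 are unlike. The labels do not say whether neighbours are separate samples. If they are not, each group holds 3 samples and p-values from 12 readings are too small. The adjusted p of a fit to the pair averages, 3 values against 3, is therefore given beside each call made after quantile normalization.

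Most of the 52 genes were also highest in the same numbers. In deposited values, 35 of the 52 genes had their highest pair average in numbers 3 and 4 in toc90, and 46 of 52 did in WT. The same count was not made over all probes, so brighter columns and a trait of these genes cannot be told apart. The dim end of the table differed between the groups, with 20.3% to 33.4% of all probes listed at 0 in toc90 columns and 13.5% to 17.3% in WT columns. Zeros were left out of the log2 values and the columns were then quantile normalized, that is, forced to 1 common distribution. In simulated data with the observed, unequal zeros this fit called many more unchanged probes than with equal zeros, so some of the calls below may be false, and which ones is not known. Whether the calls held with values as deposited and after cyclic loess, a smooth alignment of columns at each level, is given with them.

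The comparison of toc90 with WT asks which transcripts differ when import is impaired. In the limma fit over 2687 probes, 23.9% of all probes tested passed a Benjamini-Hochberg adjusted p under 0.05, 6.92% higher and 17.0% lower in toc90. Of the 52 bright genes 51 were tested, and 17 passed, 1 higher and 16 lower. Below, passed and called refer to this fit, after quantile normalization, unless another setting is named. The fit to the pair averages called 3.98% of all probes, 1.12% higher and 2.87% lower, and 2 of the 51 genes, both lower. As deposited, 3.16% of all probes were called higher and 33.3% lower, against 2 and 8 of the 51 genes. With cyclic loess, 12.2% of all probes were called higher and 11.7% lower, against 3 and 9 of 49 genes tested. The WT values of this comparison chose the genes, so nothing is read from these counts. The median log2 difference was -0.23 over the 51 genes and -0.21 over all probes tested. With values as deposited it was -0.08 over the 51 genes and -0.72 over all probes. In deposited values 36 of the 52 genes had group means within 1.5-fold of each other, 5 were at least 1.5-fold higher in toc90 and 11 at least 1.5-fold lower, APTX included. The same split was not made over all probes, so it does not show that the bright genes were steadier than others.

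**Figure D2:**
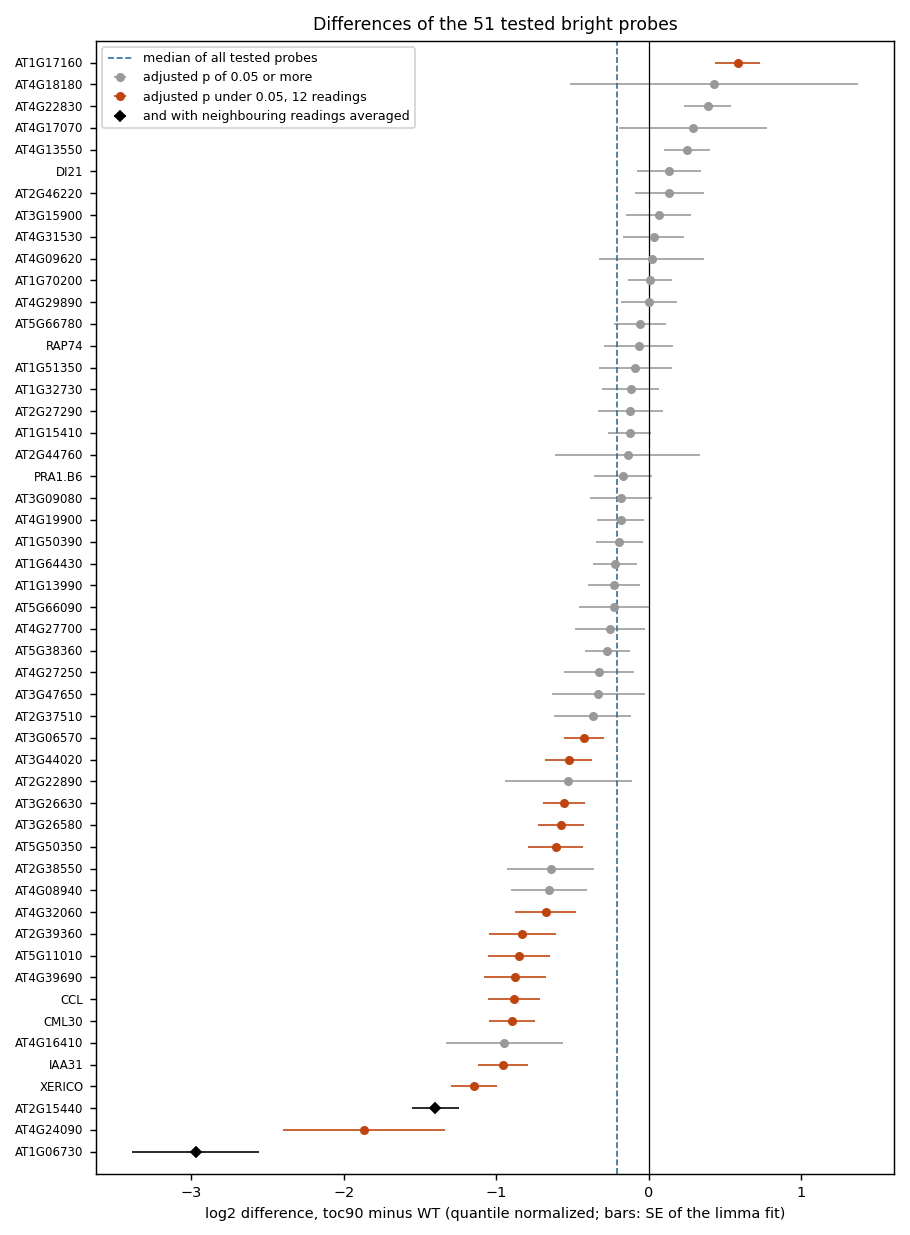
Log2 difference of each of the 51 tested bright probes, toc90 minus WT after quantile normalization (points, with the SE of the limma fit as bars), sorted from the highest to the lowest. AT1G17160 is the only call above 0, 16 genes are called below 0, and the 2 black diamonds, AT2G15440 and AT1G06730, are also called on the pair averages.

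The lowest of these differences belonged to AT1G06730, which encodes a sugar kinase of the pfkB family, enzymes that phosphorylate ribose, fructose and related compounds. Its deposited values ran from 0.0601 to 0.36 with a median of 0.164 in toc90, and from 1.11 to 1.63 with a median of 1.25 in WT. No toc90 reading reached the lowest WT reading, and in the group means it stood at 0.172 ± 0.109 in toc90 against 1.32 ± 0.2 in WT (SD, n = 6 each). The log2 difference was -2.97 ± 0.41 (SE, limma adjusted p = 0.000488, and 0.045 on the pair averages). AT1G17160, a plastid ribokinase of the same family, rose in toc90, with deposited values of 2.39 to 3.83 and a median of 2.73 in toc90 against 1.44 to 1.89 and a median of 1.72 in WT. All 6 of its toc90 readings lay above every WT reading, where 1.75% of all probes tested showed that separation, and its log2 difference was 0.58 ± 0.15 (SE, limma adjusted p = 0.0149). It was called higher as deposited and with cyclic loess (limma adjusted p = 0.00602 and 0.000369), and not on the pair averages (0.224). AT1G50390, also annotated in this family, averaged 1.56 ± 0.255 in toc90 and 1.63 ± 0.401 in WT (SD, n = 6 each) and did not pass (limma adjusted p = 0.384). The difference of AT1G17160 was above 0 and that of AT1G06730 below 0 in all 11 settings tried, so the opposite signs of these 2 genes did not depend on the scaling. The difference between them was not tested.

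AT2G15440 was the other gene called on the pair averages. It encodes a protein with the DUF579 domain, a family that holds enzymes of xylan formation in the cell wall. Its toc90 readings were the most even of all 52 genes relative to their mean, from 0.339 to 0.429 with a median of 0.368, while the WT readings ran from 0.802 to 1.29 with a median of 0.971. The groups did not overlap, and toc90 was wholly below WT in this way for 3 of the 51 tested genes and for 22.5% of all probes tested. The log2 difference was -1.40 ± 0.15 (SE, limma adjusted p = 7.71e-05, and 0.0436 on the pair averages). With AT1G06730 it was called lower in all 11 settings, from -1.44 to -0.74 for AT2G15440 and from -3.17 to -2.26 for AT1G06730.

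The third gene without overlap was AT4G24090, for which no function is given here. Its toc90 readings fell apart by number, with 0.0991 to 0.27 in numbers 1 to 4 and at most 1.09 in numbers 5 and 6, against 1.17 to 1.48 in WT. Most of the difference thus came from numbers 1 to 4 of toc90. The log2 difference was -1.87 ± 0.53 (SE, limma adjusted p = 0.0251), and it was not called on the pair averages (limma adjusted p = 0.184), with median scaling (-1.27, 0.142) or with zeros raised to the lowest positive value (-1.59, 0.068).

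**Figure D3:**
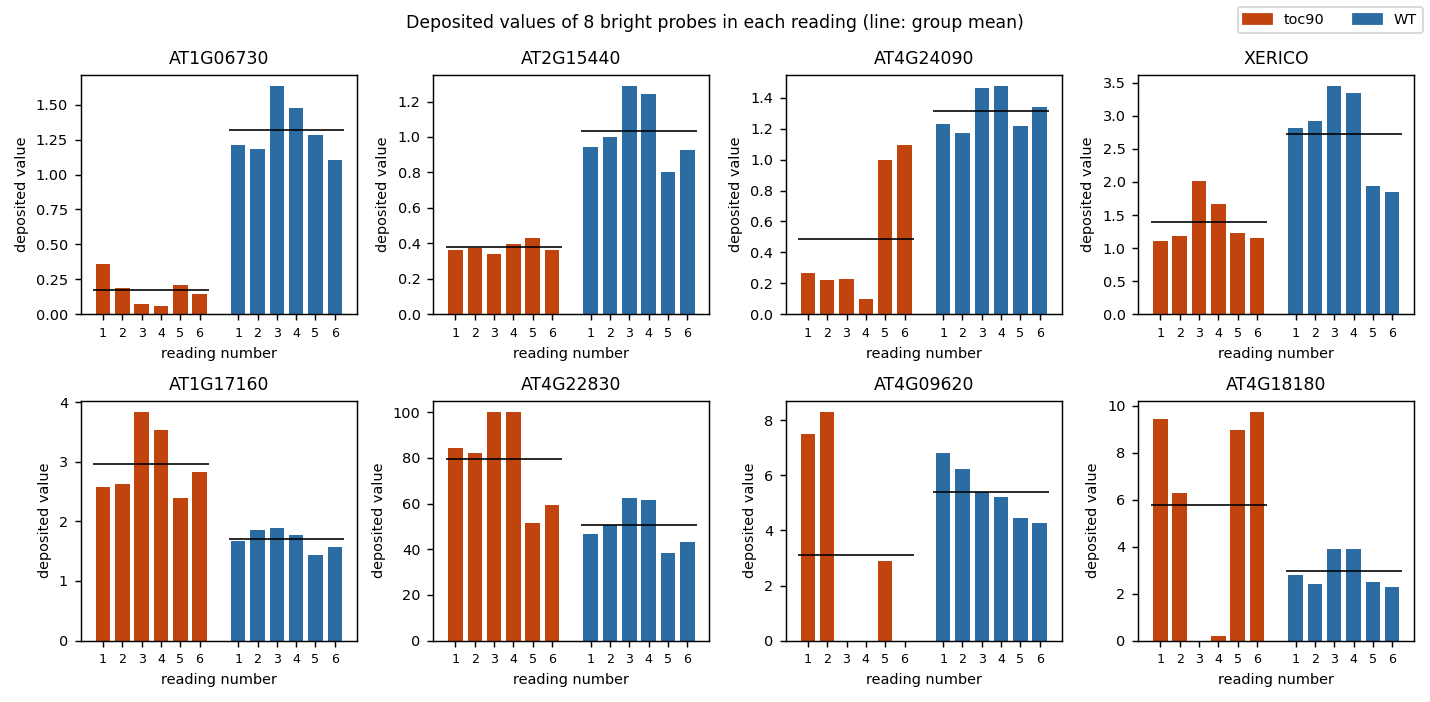
Deposited values (vertical axes from 0, each with its own scale) of 8 bright probes in toc90 readings 1 to 6 (left, orange) and WT readings 1 to 6 (right, blue), with the group mean as a line. AT1G06730 and AT2G15440 are low in every toc90 reading, and AT4G24090, AT4G09620 and AT4G18180 vary widely among the toc90 readings.

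XERICO, IAA31, CML30 and CCL were among the genes called lower. XERICO encodes a RING-type protein known to promote the accumulation of abscisic acid, the hormone of water stress. It had deposited values of 1.11 to 2.01 with a median of 1.21 in toc90 and of 1.85 to 3.45 with a median of 2.87 in WT, and 5 of 6 toc90 readings were lower than any in WT. The log2 difference was -1.15 ± 0.15 (SE, limma adjusted p = 0.000329, and 0.0629 on the pair averages). IAA31 belongs to the Aux/IAA proteins, repressors of the auxin response. It had values of 0.395 to 0.943 with a median of 0.423 in toc90 and of 0.866 to 1.47 with a median of 0.922 in WT, and its log2 difference was -0.96 ± 0.17 (SE, limma adjusted p = 0.00204, and 0.111 on the pair averages). Its groups overlapped in numbers 3 and 4 of toc90. CML30, a calmodulin-like protein of the kind that binds calcium, had values of 0.537 to 1.01 with a median of 0.659 in toc90 and of 0.913 to 1.57 with a median of 1.42 in WT, and its log2 difference was -0.90 ± 0.15 (SE, limma adjusted p = 0.00181, and 0.114 on the pair averages).

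CCL, whose transcript is known for fast decay and for control by light and the circadian clock, had values of 2.52 to 4.32 with a median of 3.27 in toc90 and of 3.83 to 6.39 with a median of 5.07 in WT. Of its toc90 readings, 5 of 6 were lower than any in WT. The log2 difference was -0.88 ± 0.17 (SE, limma adjusted p = 0.00386, and 0.11 on the pair averages). Not all genes of water stress were lower. DI21, named for its induction by drought, averaged 1.2 ± 0.38 in toc90 and 1.02 ± 0.34 in WT (SD, n = 6 each), and AT5G66780, a late embryogenesis abundant protein, averaged 2.42 ± 1.12 in toc90 and 2.08 ± 0.562 in WT. Neither passed after quantile normalization (limma adjusted p = 0.67 and 0.835). With median scaling, which called 16.0% of all probes higher, both were called higher (0.00837 and 0.0106). This grouping was made after the values were seen, and none of the falls in it was called on the pair averages. Nor were they called with median scaling, where the log2 difference of XERICO was -0.26 (limma adjusted p = 0.311), that of IAA31 -0.24 (0.378), that of CML30 -0.13 (0.632) and that of CCL 0.10 (0.671).

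AT4G39690 encodes MIC60, a subunit of the complex that shapes the inner membrane folds of mitochondria and that in Arabidopsis is known to take part in lipid transfer. Its values ran from 1.56 to 3.4 with a median of 3.18 in toc90 and from 3.39 to 5.07 with a median of 4.19 in WT, and its log2 difference was -0.88 ± 0.20 (SE, limma adjusted p = 0.00912, and 0.16 on the pair averages). It was called lower with cyclic loess (limma adjusted p = 0.0193) and not as deposited (0.0552). AT4G32060 encodes MICU, which controls calcium uptake into mitochondria, and had values of 3 to 4.25 with a median of 3.63 in toc90 and of 3.46 to 6.89 with a median of 4.36 in WT. Its groups overlapped in part, and its log2 difference was -0.68 ± 0.20 (SE, limma adjusted p = 0.0285, and 0.241 on the pair averages). It was not called as deposited (limma adjusted p = 0.148), with cyclic loess (0.097) or with the reading number as a replicate block (0.0824). AT5G11010, of the family of the pre-mRNA cleavage factor CLP1, had values of 1.15 to 3.58 with a median of 2.04 in toc90 and of 2.22 to 4.41 with a median of 2.97 in WT. Its log2 difference was -0.85 ± 0.20 (SE, limma adjusted p = 0.0107, and 0.165 on the pair averages). It was not called as deposited (limma adjusted p = 0.169) or with cyclic loess (0.0758). RAP74, the large subunit of the transcription factor TFIIF, spread widely in toc90, from 2.08 to 5.1 against 2.69 to 3.6 in WT, and did not pass (limma adjusted p = 0.859).

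At the surface of the cell, AT2G39360 (CURVY1), a receptor-like kinase known for its part in cell shape, had values of 0.831 to 1.24 with a median of 0.95 in toc90 and of 1.18 to 1.94 with a median of 1.8 in WT. Of its toc90 readings 5 of 6 were lower than any in WT, and the log2 difference was -0.83 ± 0.22 (SE, limma adjusted p = 0.0173, and 0.2 on the pair averages). With median scaling it was -0.02 (limma adjusted p = 0.953). AT4G19900, a glycosyltransferase, averaged 8.93 ± 2.06 in toc90 and 8.22 ± 2.19 in WT (SD, n = 6 each) and did not pass (limma adjusted p = 0.416).

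The remaining 5 calls, like those of AT4G32060 and AT5G11010 above, were lost with values as deposited and with cyclic loess. Over all tested probes the median log2 difference was -0.21 after quantile normalization and -0.72 as deposited, so these genes lay below it after quantile normalization and above it as deposited. AT3G26630, a pentatricopeptide repeat protein of the kind that handles organelle RNA, averaged 21.9 ± 6.53 in toc90 and 23.2 ± 5.2 in WT (SD, n = 6 each), close to equal as deposited. After quantile normalization its log2 difference was -0.56 (limma adjusted p = 0.0136), and as deposited it was -0.10 (0.749). AT5G50350, of unknown function, had a log2 difference of -0.61 after quantile normalization (limma adjusted p = 0.0312) and of -0.18 as deposited (0.635). AT3G06570, a kelch-repeat F-box protein, stood at -0.42 (limma adjusted p = 0.0344) and at -0.08 as deposited (0.8). AT3G26580, a tetratricopeptide repeat protein, and AT3G44020 stood at -0.57 and -0.52 (limma adjusted p = 0.0172 and 0.0294) and at -0.46 and -0.37 as deposited (0.0889 and 0.305). With median scaling AT3G26630 and AT3G06570 were called higher (limma adjusted p = 0.0192 and 0.00979). On the pair averages none of the 5 was called (limma adjusted p = 0.231, 0.251, 0.338, 0.229 and 0.288, in the order named). With the reading number as a replicate block, 4 of these 5 were not called either, AT3G26630 (limma adjusted p = 0.0665), AT3G06570 (0.0975), AT3G44020 (0.0618) and AT3G26580 (0.0688). Of the 16 lower calls, 8 were also called lower both as deposited and with cyclic loess. They were AT1G06730, AT4G24090, AT2G15440, XERICO, IAA31, CML30, CCL and AT2G39360. As deposited 33.3% of all probes were called lower, and with cyclic loess 11.7%. Of the 8, only AT1G06730 and AT2G15440 were also called lower with median scaling, and only they were called on the pair averages. Of the 16, 2 had WT means above 10, 6 had means from 2 to 10 and 8 had means under 2.

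**Figure D4:**
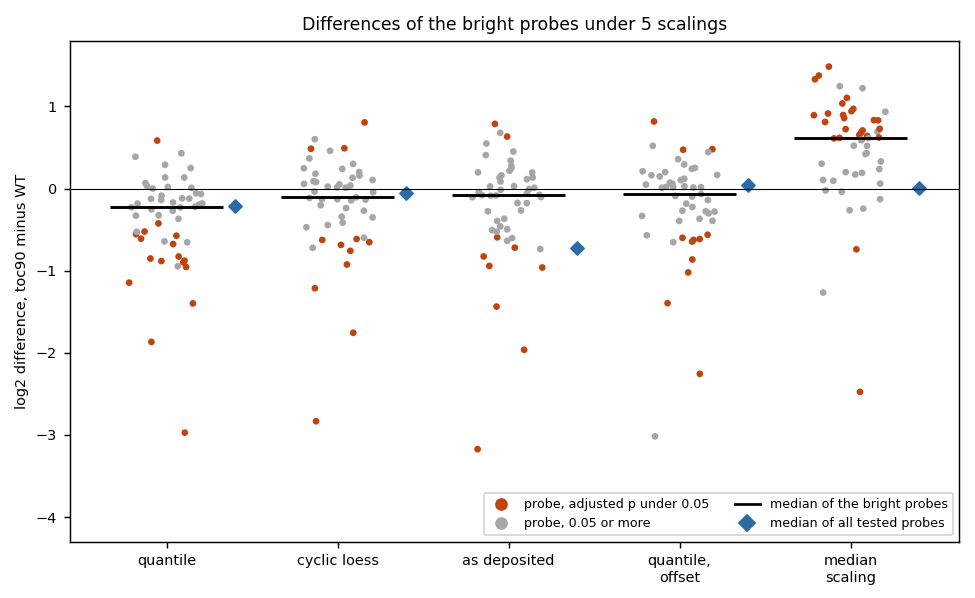
Log2 difference (toc90 minus WT) of the tested bright probes under 5 scalings, with calls in orange, the median of the bright probes as a black line and the median of all tested probes as a blue diamond. The median of the bright probes lies between -0.23 and -0.07 under the first 4 scalings and at 0.62 with median scaling, where 24 are called higher (16.0% of all probes) and 2 lower (12.6% of all probes).

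Of the 10 genes with the highest WT means, 2 were called after quantile normalization, AT3G26630 and AT5G50350 above. AT4G22830, which encodes a YCF49-like protein, had values of 51.5 to 100 with a median of 83.3 in toc90 and of 38.4 to 62.4 with a median of 48.8 in WT, and 4 of 6 toc90 readings were higher than any in WT. In numbers 3 and 4 of toc90 it stood at 100 together with other probes, 6 probes in each column, so 100 is a ceiling there and its toc90 mean is a lower bound. Its log2 differences and tests were computed with these capped values and are therefore not exact. On them it did not pass after quantile normalization (limma adjusted p = 0.0853) and passed as deposited (0.0456) and with cyclic loess (0.0171). On the pair averages it was called neither after quantile normalization (limma adjusted p = 0.418) nor as deposited (0.278). The deposited log2 difference of 0.63 is a lower bound. AT4G31530, a Rossmann-fold protein, had values of 51.9 to 65.7 with a median of 58.2 in toc90 and of 40.3 to 66.9 with a median of 42.6 in WT, and did not pass (0.03 ± 0.20, SE, limma adjusted p = 0.921). The WT readings of AT4G31530 fell into 2 high values in numbers 3 and 4 and 4 low ones, and those of toc90 did not.

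AT2G27290, a protein of the DUF1279 family, had values of 21.3 to 53.3 with a median of 38.1 in toc90 and of 19.4 to 54.6 with a median of 39.6 in WT. AT5G38360, an alpha/beta-hydrolase, had values of 21.6 to 41 with a median of 35.8 in toc90 and of 27.8 to 38.3 with a median of 31.9 in WT. The ranges of AT2G27290 overlapped almost fully. Of the toc90 readings of AT5G38360, numbers 3 and 4 lay above every WT reading and numbers 5 and 6 below every WT reading. Neither gene passed (limma adjusted p = 0.706 and 0.199). AT2G46220, of the DUF2358 family, ran from 10.9 to 30.2 with a median of 20.5 in toc90 and from 8.79 to 13.9 with a median of 12.3 in WT. Its numbers 1 to 4 of toc90 lay above every WT reading and numbers 5 and 6 did not, and it did not pass (0.13 ± 0.23, SE, limma adjusted p = 0.695). The log2 difference was larger, but not called, as deposited (0.68, limma adjusted p = 0.0831) and with cyclic loess (0.60, 0.0802), and it was called higher with median scaling (1.38, 0.000878). AT4G17070 ran from 7.51 to 45.3 with a median of 31 in toc90 and from 7.25 to 28.6 with a median of 17.8 in WT. AT1G51350, an armadillo-repeat protein, ran from 18.3 to 33.1 with a median of 25.1 in toc90 and from 15.3 to 24.3 with a median of 21.3 in WT. Neither passed (limma adjusted p = 0.695 and 0.825).

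Some probes followed the reading number in both groups. AT4G17070 had its lowest values in numbers 1 and 2, at 9.47 and 7.51 in toc90 and at 7.29 and 7.25 in WT. AT2G44760 was also lowest in numbers 1 and 2, at 0.306 and 0.319 in toc90 and at 0.55 and 0.47 in WT, against at least 1.41 in the other toc90 readings and at least 1.13 in the other WT readings. AT2G27290 was lowest in numbers 5 and 6, at 21.3 and 21.6 in toc90 and at 21.6 and 19.4 in WT. These genes were picked after their values were seen. What the numbers stand for is not in the labels.

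AT4G09620 and AT4G18180 varied more among the toc90 readings than among the WT readings, which is a description with no test. AT4G09620, a member of the mTERF family of organelle gene expression factors, was at 7.5 and 8.3 in numbers 1 and 2 of toc90, at 2.9 in number 5 and listed at 0 in numbers 3, 4 and 6. In WT it ran from 4.28 to 6.83. Its SD over the 6 toc90 readings was 1.24 times the mean, the highest among the 51 genes with a value above 0 in toc90, and its test (0.02 ± 0.35, SE, limma adjusted p = 0.975) left out the 3 zeros. AT4G18180, a pectin lyase-like protein named here after its values were seen, was at 9.43, 6.3, 8.96 and 9.73 in numbers 1, 2, 5 and 6 of toc90, above every WT reading, and at 0 and 0.19 in numbers 3 and 4, below every WT reading, which ran from 2.28 to 3.91. It did not pass (0.43 ± 0.94, SE, limma adjusted p = 0.769, with the zero left out). Over the genes, the median ratio of SD to mean was 0.298 in toc90 and 0.216 in WT.

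AT3G47650 encodes BSD2, a chaperone for the assembly of Rubisco, and averaged 1.65 ± 0.751 in toc90 and 1.67 ± 0.239 in WT (SD, n = 6 each). Its toc90 readings ran from 0.669 to 2.48, with numbers 5 and 6 below every WT reading. AT1G70200 (RBD1), an RNA-binding protein of chloroplast ribosomal RNA processing, averaged 1.45 ± 0.441 in toc90 and 1.26 ± 0.155 in WT. AT4G27700, a rhodanese-like protein, averaged 2.28 ± 0.305 in toc90 and 2.37 ± 0.282 in WT. Their tests did not pass (limma adjusted p = 0.467, 0.972 and 0.453).

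Values for 3 genes of fatty acid and galactolipid metabolism, picked after their values were seen, follow. None of the 3 was called after quantile normalization. AT2G38550 (FAX3), of the family of plastid fatty acid exporters, averaged 1.48 ± 0.454 in toc90 and 2.01 ± 0.221 in WT (SD, n = 6 each), with 4 of 6 toc90 readings lower than any in WT (limma adjusted p = 0.126). AT4G13550 (HIL1), a lipase that releases fatty acids from a galactolipid of the chloroplast under heat, averaged 1.58 ± 0.371 in toc90 and 1.18 ± 0.235 in WT, with 4 of 6 toc90 readings higher than any in WT (limma adjusted p = 0.251). HIL1 was called higher with cyclic loess (limma adjusted p = 0.0123), with an offset (0.025) and with median scaling (0.00101). It was not called on the pair averages after quantile normalization (0.59). AT2G22890, of the family of the fatty acid desaturase FAD4, spread from 0.141 to 1.71 in toc90 against 0.612 to 1.42 in WT (limma adjusted p = 0.381).

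A group of 13 bright genes, formed after their values were seen, completes the 52, and none of them was called after quantile normalization. They were PRA1.B6, a prenylated RAB acceptor, with AT1G13990, AT1G15410, AT1G32730, AT1G64430, AT2G37510, AT2G44760, AT3G09080, AT3G15900, AT4G08940, AT4G16410, AT4G29890 and AT5G66090. Their toc90 means ran from 0.966 to 3.19 and their WT means from 1.05 to 3.06, and their log2 differences from -0.95 to 0.07 (lowest limma adjusted p = 0.0753). The lowest belonged to AT4G16410, which had at most 1.41 in numbers 1 to 4 of toc90 and 3.62 and 3.63 in numbers 5 and 6, against 2.31 to 4.38 in WT. With median scaling, which called 16.0% of all probes higher, most of this group was called higher (limma adjusted p from 0.00515 to 0.0319). The exceptions, called in no setting tried, were AT2G37510, AT2G44760, AT4G08940, AT4G16410 and AT5G66090.

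Genes of photosynthesis and import were looked up on lists that did not hold the 10 genes left out by name. Of 76 genes on 6 lists drawn up for electron transport, the Calvin cycle, photorespiration, plastid redox proteins, plastid import and proteolysis, and housekeeping, 1 was on a single-gene probe, SBPASE of the Calvin cycle, and it had too few values to be tested. None of the 76 was among the 52 genes, and TOC90 itself was not analysed here, so the labels were not checked by it.

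The limit of 1.0 in WT cuts through a continuous range. Just inside it lay AT2G15440, AT4G27250 and DI21, with WT means of 1.03, 1.02 and 1.02, and just outside OTP70, AT1G10310 and AT4G21170, with WT means of 0.992, 0.973 and 0.96. AT4G27250, a Rossmann-fold protein, averaged 0.845 ± 0.189 in toc90 and 1.02 ± 0.196 in WT (SD, n = 6 each) and did not pass (limma adjusted p = 0.328). OTP70, an organelle transcript processing factor, averaged 0.717 ± 0.213 in toc90, against 0.992 ± 0.22 in WT. AT1G10310 averaged 0.589 ± 0.239 in toc90, against 0.973 ± 0.145 in WT, and AT4G21170 averaged 0.537 ± 0.206 in toc90, against 0.96 ± 0.115 in WT.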

How the data were processed

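The deposited table held 1 array intensity value per probe and sample, and no column without a sample was used. For the scaling by the authors, the scanner, the background step and the probe design, nothing is given in the sources used here. Genes were named through the platform annotation, updated with a reference table of the assembly TAIR10.1, in which all 52 genes matched. Values listed at 0 were taken as missing, the log2 of the deposited intensity was quantile normalized, and probes with at least 3 values in each group were fitted two-sided in R 4.3.3 with limma 3.58.1 (lmFit, eBayes), with Benjamini-Hochberg adjustment over all probes tested. Averages of neighbouring readings needed at least 2 values in each group. On simulated data with equal zeros in both groups the fit passed a check on the share and sign of the larger changes that it found. With the observed unequal zeros the fit gave many more false calls. The simulated readings were drawn independently, so repeats among neighbouring readings were not covered. The genes and lists were chosen with earlier results of these data known. Named genes were the 10 with the highest WT means, up to 10 largest called rises and falls, list members, the 3 genes on each side of the limit, and the extremes of SD over mean in toc90. This gave 24 of the 52, and others were named for their role after their values were seen. The alternatives were other scalings, treatments of zeros, a filter on dim probes, the number as a replicate block, averaged neighbours and array weights. The number of arrays limits the precision. Python 3.11.15 with matplotlib 3.10.9 drew the figures.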

Additional observations from a re-analysis of the deposited data

Results flagged for a closer look

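In 104 sets of 6 readings, the 52 genes in each group, a single reading stood far from the others in 1 set, where chance gives about 1 in 20 sets. It was WT reading 1 of APTX, at 99.4, with the nearest of the other 5 WT readings at 0, so its gap to the others was the whole range (a ratio of 1). All 6 toc90 readings of APTX were at 0 as well. With the median of the 6 WT readings in place of the mean, 49 genes reached 1.0. In deposited values neighbouring readings stand together, which limits what a test for a single far reading can find. Switches of a whole pair, as in AT4G18180, are not found by it.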

How the results depend on the processing

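Of 51 tested bright genes 17 were called (1 higher, 16 lower), and 643 of all probes. The count was 26 with median scaling (24 higher, 2 lower), 10 with values as deposited (2 and 8), 6 with zeros raised to the lowest positive value (5 lower) and 2 with neighbouring readings averaged (0 higher and 2 lower). Cyclic loess gave 3 higher and 9 lower, an offset 3 higher and 9 lower, and array weights 2 higher and 15 lower. Over all probes array weights gave 621 calls (125 higher, 496 lower). Over all probes cyclic loess gave 353 calls (180 higher, 173 lower), values as deposited 981 (85 and 896), zeros raised to the lowest positive value 260 (167 and 93), the number as a replicate block 418 (118 and 300) and averaged neighbours 107. The split of all calls was 186 higher and 457 lower after quantile normalization, 431 and 339 with median scaling and 254 and 294 with an offset. Values as deposited with neighbours averaged, chosen after seeing the data, gave 2 calls among the bright genes (0 higher, 2 lower) and 369 over all probes. Median scaling moved the median of all probes from -0.21 to 0.01 and that of the bright genes from -0.23 to 0.62. Median scaling subtracts the median of each column, so it moves the deposited difference of every probe without zeros by the same amount. That of AT4G22830 went from 0.63 to 1.33 and that of AT1G06730 from -3.17 to -2.48. Column medians, zeros included, were 0.0593 to 0.0687 in toc90 and 0.151 to 0.157 in WT. Why the column medians differ was not tested.

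With median scaling 13 of 28 named differences turned above 0, AT2G27290 (0.69), AT5G38360 (0.68), AT3G26630 (0.59), AT1G51350 (1.04), AT5G50350 (0.52), CCL (0.10), AT4G39690 (0.060), AT5G11010 (0.095), AT4G27250 (0.42), AT3G06570 (0.62), AT4G32060 (0.30), AT3G44020 (0.33) and AT3G26580 (0.24). Of these, AT3G26630 and AT3G06570, called lower after quantile normalization, were called higher with median scaling (limma adjusted p = 0.0192 and 0.00979). AT5G38360 and AT1G51350, not called after quantile normalization, were called higher there too (0.00843 and 0.00139). Other genes described above as not passing were also called higher with median scaling. Among them were AT4G22830, AT4G31530, AT4G19900, RAP74, AT1G50390, AT1G70200, AT4G27700 and HIL1 (limma adjusted p from 0.000176 to 0.0436). AT2G27290 turned to 0.019 with zeros raised to the lowest positive value and with an offset. AT1G51350 turned to 0.24 with cyclic loess, 0.34 as deposited, with or without averaging, 0.17 with zeros raised to the lowest positive value and with an offset, and 0.063 with array weights. AT4G09620 turned to -9.45 with zeros raised to the lowest positive value, -3.02 with an offset, -0.23 with the replicate block, -0.20 with neighbours averaged, -0.025 with array weights and -0.15 as deposited and averaged. AT4G18180 turned to -2.24, -0.28, -0.33 and -0.28 with zeros raised to the lowest positive value, an offset, neighbours averaged, and values as deposited and averaged. Both have toc90 readings at 0. Leaving out the dimmest 25% of probes changed no call among the 28. That filter could not remove genes chosen as bright, so little change was to be found by it.

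Same-numbered readings of the groups correlated at 0.08 to 0.25 over 1474 probes. All 6 WT readings correlated best with their own number in toc90, a hint from the data that the numbers may pair the samples. The labels do not say what the number marks, so it was used as a replicate block in an alternative only. The number as a replicate block gave 12 calls in place of 17 (1 higher, 11 lower), without AT3G26630, AT3G06570, AT4G32060, AT3G44020 and AT3G26580. With a WT minimum of 2.0 there were 29 genes, with 0.5 there were 112.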
